A study of Mus musculus with 4 samples.

Results

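In mouse embryonic stem cells, 112 stretches of the autosomes that are dense in the sequence CCGG were cut by the methylation-sensitive enzyme HpaII about as often as the average CCGG position. CCGG positions with at least 10 CCGG within 500 bp on either side, the position itself included, were called dense. Dense autosomal positions no more than 500 bp apart were joined into 9433 runs. Sequence tags of each run were summed in 4 libraries and scaled to each library's total. A run was partly cut if its MspI libraries together held at least 20 tags and its HpaII/MspI ratio, summed over both cell fractions, was from 0.5 to under 2. Of the 9433 runs, 6602 held enough MspI tags, and 112 of these were partly cut. A further 6382 had a ratio of 2 or more (highly cut), 108 had a ratio under 0.5 (rarely cut), and 2831 were under the MspI minimum. A working name for the 112 was CpG-island-like clusters. The data went against it for most members: 64 carried a spacing of CCGG that recurs at 10 or more places in the genome, and 1 of 111 held a gene start that could be placed. They are called partly cut runs here.

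The study measured DNA methylation by HELP tagging, in which genomic DNA is cut with a restriction enzyme and a short tag beside each cut is sequenced. The cells were MC1-ZE7 mouse embryonic stem cells (strain 129S6/SvEvTac, passage 31), which express the fluorescent protein Emerald from the promoter of Zscan4c. All cells were grown without feeders on gelatin in medium with serum and leukemia inhibitory factor, and were sorted by Emerald fluorescence into an Emerald-high fraction (labelled Em+ high) and an Emerald-negative fraction (labelled Em-). DNA of each fraction was cut with HpaII and, separately, with MspI. Both fractions carry the same reporter, so by the labels they differ by the sort alone, and Emerald marks activity of the introduced Zscan4c promoter, not of every Zscan4 gene. The labels do not say whether the line is 1 clone, or how many cultures were sorted. Methylation tags do not measure expression, so the identity of the sorted cells was not checked. There was 1 library per fraction and enzyme, so no value has a replicate check. Over 1594137 CCGG positions, Emerald-high cells gave 5662614 HpaII and 9372711 MspI tags, and Emerald-negative cells gave 9535691 and 9307616. Of these, 3121 and 4251 tags (Emerald-high) and 5657 and 3752 (Emerald-negative) lay in the partly cut runs.

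CpG islands are stretches rich in CG dinucleotides that are mostly unmethylated in mammalian cells and often surround gene starts. Methylation of the CG inside CCGG blocks HpaII, whereas MspI cuts it either way, so the HpaII/MspI ratio of a place rises as its methylation falls. Many dispersed repeats are also rich in CG and are mostly methylated in mammalian DNA. Zscan4 genes are active in the early embryo and, in cultured embryonic stem cells, for short periods in a small share of the cells. In what follows a ratio of 1 means that a place took the same share of the HpaII library as of the MspI library. It is the library average, not a methylation level of 50%. Intervals are 95% intervals. They cover counting error only, since tags carry no molecular identifiers and copies made in amplification count as separate tags.

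The partly cut run at the start of Krtdap, a gene for a secreted protein of differentiating keratinocytes, is shown because it was the only one of 111 that held a placed gene start. The sequence is the RefSeq promoter (GRCm38.p6, plus strand, 250 bases before to 50 after the start). Capitals mark CCGG, where HpaII and MspI cut.
Krtdap: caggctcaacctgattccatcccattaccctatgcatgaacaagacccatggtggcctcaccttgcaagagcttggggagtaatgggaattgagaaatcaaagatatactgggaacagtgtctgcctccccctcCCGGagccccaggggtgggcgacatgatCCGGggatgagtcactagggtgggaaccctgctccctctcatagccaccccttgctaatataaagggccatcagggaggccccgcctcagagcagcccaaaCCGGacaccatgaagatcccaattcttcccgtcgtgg
The 3 CCGG of this promoter had the same spacing as the 3 positions of the run at chr7:31572809-31572938 (mm9). They lie 116 and 88 bases before the start and 13 bases after it. Over the 300 bases there were 7 CG dinucleotides, a GC content of 56.3% and an observed over expected CG frequency of 0.296. The 6935 promoters of the table with at least 3 CCGG had a median of 28 CG, a median GC content of 67.3% and a median observed over expected CG frequency of 0.850. Only 1.10% of those promoters had as few CG as that of Krtdap. The 3 CCGG of this promoter thus came with fewer CG than in most promoters of the table with at least 3 CCGG. The density of CCGG was counted over 500 bp on either side, and CG content beyond these 300 bases was not read.

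The ratio that chose the members is given here as a description. The median ratio was 1.23 over partly cut runs (quartiles 0.872 and 1.64), 4.58 over highly cut runs and 0.184 over rarely cut runs. Of the members, 36 had a ratio under 1 and 76 a ratio of 1 or more. Runs became fewer from the upper to the lower limit: 15 runs lay from 0.5 to under 0.7, 21 from 0.7 to under 1, 35 from 1 to under 1.4 and 41 from 1.4 to under 2, against 106 from 2 to under 2.8 and 5075 from 4 to under 8. The partly cut runs were thus a sparse tail below the highly cut runs and formed no peak of their own.

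**Figure D1:**
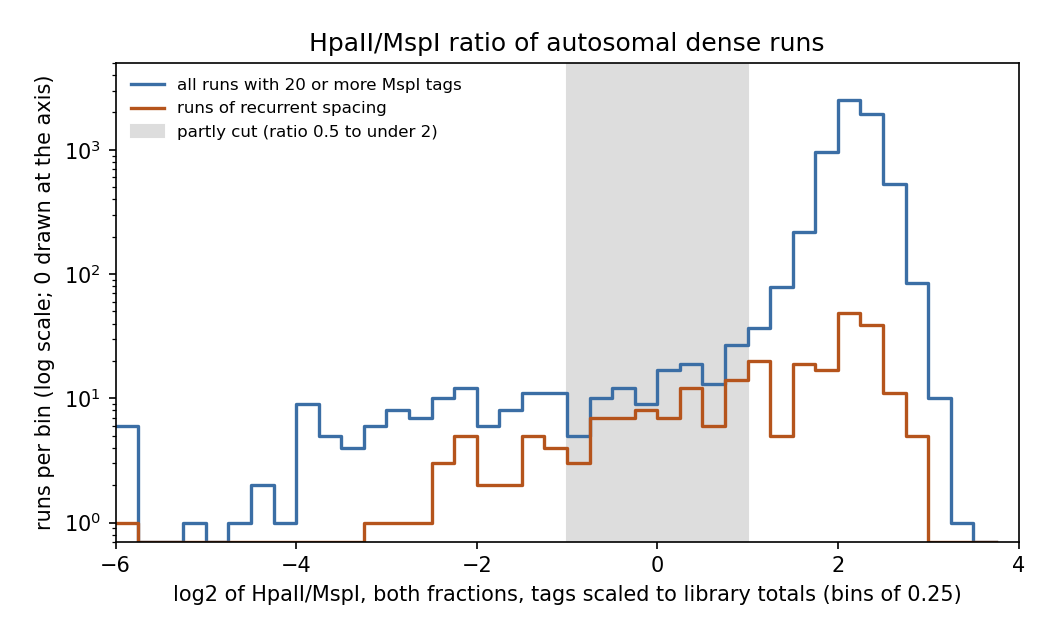
Number of autosomal dense runs (log scale) by log2 of the HpaII/MspI ratio of both fractions, for all 6602 runs with 20 or more MspI tags and for those of recurrent spacing, with the range of partly cut runs in grey. Most runs peak near the highly cut median of 4.58, and inside the grey range a large part of the runs have recurrent spacing.

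At the lower limit, among runs with at least 100 MspI tags, chr1:78796795-78797376 (ratio 0.540) and chr15:38245388-38245726 (0.558) lay just inside. The nearest outside it were chr1:141839205-141839874 (0.486) and chr11:53632554-53633012 (0.478). At the upper limit chr7:89919687-89920539 (1.97) and chr4:49479270-49480203 (1.76) lay just inside, and chr15:89186087-89186312 (2.20) and chr11:60002699-60003150 (2.26) just outside. Counting error alone left the class of many members uncertain. The interval of the ratio lay wholly inside 0.5 to 2 for 36 members, reached 2 for 54 and reached below 0.5 for 22. No member's interval reached the highly cut median. Taken in each fraction separately, 96 members were within the limits in Emerald-high cells, 82 in Emerald-negative cells and 67 in both. In Emerald-negative cells 22 members were at 2 or more, against 9 in Emerald-high cells.

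Partly cut runs had a median of 11 positions (quartiles 7 and 16, at most 70) over 498 bp, a median of 41.8 MspI tags and a median of 42 HpaII tags. They were 1.70% of the runs tested and lay on all 19 autosomes, from 1 member on chromosomes 16 and 18 to 10 on chromosomes 2 and 5. Thinly covered runs were partly cut more often: 6.58% of runs with 20 to 29 MspI tags, against 0.804% with 50 to 99 and 0.718% with 100 to 199. Some positions held fractions of a tag, taken here as shared tags, which match several places and were divided among them. Fractions were found in 31 members (27.7%, 19.6 to 36.9), against 6.88% of highly cut and 59.3% of rarely cut runs. Of the members' tags, 32.6% lay at positions with fractions. Shared tags that leave whole counts cannot be seen this way. What part the division of tags had in the ratios was not tested.

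Most partly cut runs shared something that the rule did not use, the order of the gaps between their CCGG positions. A run was said to have recurrent spacing when 4 neighbouring positions in it had 3 gaps, each at most 300 bp, that were met in either direction at 10 or more places over 10000 bp apart. This held for 64 of 112 partly cut runs (57.1%, 47.4 to 66.5), 165 of 6382 highly cut runs (2.59%, 2.21 to 3.00) and 25 of 108 rarely cut runs (23.1%). Runs under the MspI minimum had it more often still, 1943 of 2831 (68.6%). With the spacing required at 3 or more places, the shares were 67.0% of partly cut, 63.9% of rarely cut and 29.2% of highly cut runs, so at that limit partly and rarely cut runs were close. At 100 or more places they were 43.8%, 9.26% and 0.893%. The share was 69.4% at ratios from 0.5 to under 1, 51.3% from 1 to under 2, 23.6% from 2 to under 2.8 and 2.05% from 4 to under 8. It was 60.5% among the 81 members with no fraction of a tag, which may still hold shared tags that leave whole counts. Depth moved with this share: it was 70.8% for members with 20 to under 50 MspI tags and 32.5% (18.6 to 49.1) for those with 50 or more, against 5.52% and 1.76% of highly cut runs. Both depth groups of partly cut runs thus had recurrent spacing more often than highly cut runs of like depth, with intervals that did not meet. Of the other members, 5 had a spacing repeated in tandem within the run, 24 had neither, and 19 had fewer than 4 close positions. Runs that shared any recurrent spacing, directly or through other runs, were joined into families. No repeat annotation was used here, so each family is named by the gaps of its commonest recurrent spacing alone.

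The largest family is named by neighbouring gaps of 5, 11 and 10 bp, a spacing met at 1546 places. The family joined 1655 dense runs on 19 autosomes. Not all of its runs held these gaps, since some were joined by another recurrent spacing. In 1438 of the runs some CCGG positions lay 212 bp apart. Following the commonest next gap from 5, 11 and 10 bp up to 212 bp gave a cycle of 6 gaps. These were 5, 11, 10, 117, 50 and 19 bp. Most of these runs, 1550, were under the MspI minimum, and of the 105 tested 44 were partly cut, 55 highly cut and 6 rarely cut, so that the family made up 44 of the 112 members. In its partly cut members 729.7 HpaII and 897.5 MspI tags were found for the Emerald-high fraction, and 1185.8 and 880.2 for the Emerald-negative one. Their pooled ratio was 1.35 (1.22 to 1.48) in the Emerald-high fraction and 1.32 (1.21 to 1.43) in the Emerald-negative one, and the log2 difference between fractions, 0.03 (-0.16 to 0.22), was within counting error. Runs of the family under the MspI minimum, which could not be members, had pooled ratios of 2.25 (2.10 to 2.41) and 2.39 (2.25 to 2.54). The minimum itself selects on MspI tags, so the 2 sets of values are not a like comparison.

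The repeated core of this family took almost no tags. In 35 partly cut runs with the cycle, 5 of 339 positions of the cycle (1.47%) had any MspI tag, so the tags of these members came from other positions in the same runs. The same held in highly cut runs of the family (12 of 415 positions, 2.89%) and under the minimum (22 of 13700, 0.161%). Over all partly cut runs, 462 of 1428 positions (32.4%) had an MspI tag, against 80.6% in highly cut runs and 70.3% in highly cut runs with 20 to 50 MspI tags. Members of recurrent spacing used 18.2% of their positions, with a median of 2 used positions per run and 73.6% of MspI tags on the position with most. Members with neither kind of repeated spacing used 80.8%. The ratio of a member of recurrent spacing was therefore usually the ratio of a few positions, not of the whole run.

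Gene starts were rare in partly cut runs, as they were in rarely cut runs, and common in highly cut runs. The files use build mm9 and the RefSeq promoters use GRCm38.p6, so starts were placed by matching the spacing of CCGG in each promoter to the positions in the files. Of 6935 starts with at least 3 CCGG, 6874 could be placed. A start without 3 CCGG cannot be placed this way, and chromosome 18 was not used. A placed start lay in 1 of 111 partly cut runs (0.901%, 0.0228 to 4.92), in 1 of 104 rarely cut runs (0.962%) and in 3112 of 6191 highly cut runs (50.3%, 49.0 to 51.5). Among runs with 20 to 50 MspI tags the shares were 1.39% and 38.5%. Among runs without recurrent spacing they were 1 of 48 (2.08%) and 50.9%. Highly cut runs that did have recurrent spacing held a start in 26.6% of 158, whereas none of 63 such partly cut runs did. The share was also lower just above the limit, 13.1% at ratios from 2 to under 2.8. The median distance to a placed start was 242282 bp for partly cut runs, and 3 of them (2.70%) lay within 5000 bp of one.

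**Figure D2:**
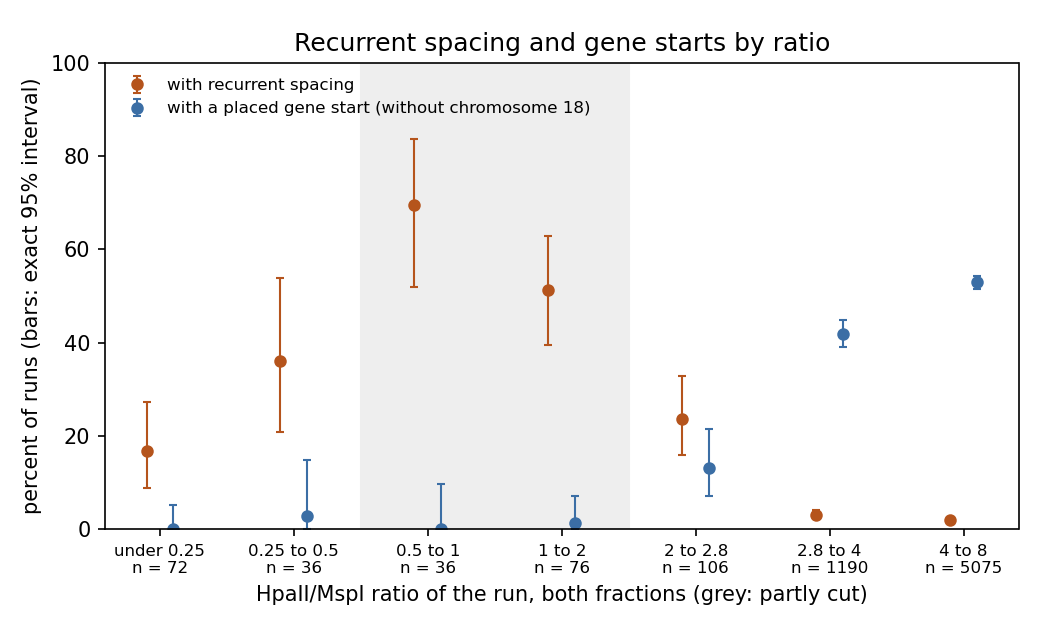
Percent of autosomal dense runs with recurrent spacing (orange) and with a placed gene start (blue, without chromosome 18), by HpaII/MspI ratio of the run, with exact 95% intervals and the number of runs under each class (11 runs at 8 or more are not drawn). Recurrent spacing is at 69.4% and 51.3% in the 2 classes of partly cut runs, and gene starts rise from 13.1% at 2 to under 2.8 to 53.0% at 4 to under 8.

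Individual members showed how these ratios arose. The member with most tags, chr7:89919687-89920539, had 16 positions, 10 of them with shared tags. Its HpaII tags numbered 768.5 for Emerald-high and 1713 for Emerald-negative cells, and its MspI tags 783.8 and 708.1. This single run carried more HpaII tags than the 44 members of the largest family together, so pooled differences are also given without it. Its nearest placed starts belong to Mex3b, 95305 bp away, and Efl1, 122562 bp away.

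Among members with at most 10% of tags at shared positions, chr4:49479270-49480203 had most MspI tags. Its 22 positions belong to the 5-11-10 family. In the order Emerald-high and Emerald-negative, used for all pairs of values from here on, 73.3 and 182 HpaII tags stood against 86.3 and 84 MspI tags. The tags sat on 7 of the 22 positions. A pair of these, 49479567 and 49480203, held the same values in all 4 libraries: 11 and 13 HpaII and 16 and 12 MspI tags. Over all partly cut runs, 39 of 258 positions with at least 20 tags (15.1%, in 7 runs) repeated the 4 values of another position of their run, against 0.222% in highly cut and 32.4% in rarely cut runs. Of these 39 positions, 4 held whole tags only, and the others lay at positions with fractions of a tag. Whether positions with the same values share their tags was not tested.

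The run at chr8:86462266-86462846 was an example without recurrent spacing or fractions of a tag. All of its 11 positions had tags, and it held 47 and 77 HpaII tags and 56 and 79 MspI tags. Its outermost position 86462266 held 4 and 6 HpaII against 15 and 18 MspI tags, while 86462765, inside the run, held 10 and 14 HpaII against 4 and 4 MspI tags. The nearest placed start was that of Gm10644, 16387 bp away. The 17-position run chr7:53049185-53050636 held 54 and 134 HpaII tags against 66 and 65 MspI tags, between the placed starts of Sult2b1 and Grwd1. At chr8:122156512-122157009, with 4 positions, the values were 65 and 114 HpaII and 63 and 64 MspI tags. Its ratios of 1.71 in the Emerald-high fraction and 1.74 in the Emerald-negative one were the closest of the 3 runs to each other.

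Lower ratios were found at chr15:38245388-38245726, which held 26 and 28 HpaII tags against 62 and 64 MspI tags over 10 positions. Its outermost position 38245726 alone held 25 and 21 MspI tags but 4 and 1 HpaII tags. At chr1:78796795-78797376, 24.5 and 42 HpaII tags stood against 83.5 and 67.5 MspI tags. For these 6 members the log2 difference between fractions ranged from -0.58 to 0.70, and none was called different between fractions.

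The 4 members with most positions had repeated spacings, and tags lay on only a part of their positions. The run chr11:104675576-104676780 had 70 positions, most of them 6 bp apart, and held 23 and 31 HpaII tags and 22 and 28 MspI tags. Position 104676464 held 14 and 20 HpaII against 3 and 4 MspI tags and 104676440 held 8 and 8 against 0 and 2, whereas 104676780, the last, held 1 and 0 HpaII against 9 and 10 MspI tags. In chr13:29162697-29164818, with 50 positions, the whole tag count lay on the last one, 29164818 (10 and 16 HpaII, 13 and 8 MspI). The 40 positions of chr14:56813175-56815102 held 12 and 14 HpaII and 14 and 21 MspI tags, and the 30 positions of chr9:121862785-121863445 held 18.5 and 10 HpaII and 40.5 and 20.5 MspI tags. In the first of these runs an intermediate ratio was thus the sum of positions with more HpaII than MspI tags and positions with fewer.

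Positions within members were then compared with each other. At single positions with at least 10 MspI tags (270 in 110 members), 44 (16.3%) had a ratio under 0.5, 189 (70.0%) were from 0.5 to under 2, and 37 (13.7%) were at 2 or more. In highly cut runs 95.7% of such positions were at 2 or more. Of 62 members with at least 2 such positions, 28 had all of them within 0.5 to 2 and 9 held both a position under 0.5 and one at 2 or more. These counts rest on the tags the rule summed and are given as a description.

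Whether unevenness within a run was the same in both fractions was read from libraries that did not do the sorting. In 33 members with at least 4 positions of 5 or more MspI tags, positions were sorted by their Emerald-negative ratio into upper and lower sites, and their tags were then read in Emerald-high cells. Read this way, the upper sites had a pooled ratio of 1.47 and the lower sites one of 0.892. The log2 difference was 0.72 (0.55 to 0.90). It was above 0 in 25 of 33 runs, and the interval was above 0 in 11 and below 0 in none. Sorted by Emerald-high and read in Emerald-negative cells, the difference was 0.90 (0.74 to 1.05). In highly cut runs the same reading gave 0.11, and partly cut runs exceeded them by 0.61 (0.43 to 0.79). The difference was 1.59 (1.22 to 1.97) in the 14 members of recurrent spacing and 0.47 (0.27 to 0.67) in the other 19, so much of its size came with recurrent spacing. Without the run with most tags, the members without recurrent spacing had 0.37 (0.08 to 0.65), and all members 0.83 (0.60 to 1.05).

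The 3 members with at least 8 usable positions and the largest such difference were chr14:56762842-56763380 (2.60, 1.26 to 3.94), chr1:78796795-78797376 (1.91, 0.58 to 3.24) and chr2:168396440-168397095 (1.58, 0.36 to 2.81). The last, 18771 bp from the placed start of Nfatc2, a transcription factor of activated lymphocytes, had no recurrent spacing. It held 44 and 89 HpaII tags and 64 and 52 MspI tags. Its position 168396828 held 11 and 14 HpaII against 8 and 2 MspI tags, while 168396997 held 4 and 5 against 13 and 11.

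The other runs of this trio belong to a small family named by gaps of 23, 5 and 43 bp, a spacing met at 28 places. All 13 runs of the family were tested: 5 were partly cut, 2 highly cut and 6 rarely cut. In 4 partly cut members the 4 positions of the pattern could be lined up. Since the chr1 and chr14 members were named for their uneven positions, the values are a description only. At place 3 of the pattern, chr1 position 78796960 held 14 and 28 HpaII tags against 13 and 6 MspI tags. The chr14 copy (56762965) held 13 and 25 against 12 and 7, and the chr15 copy (31632977) 13 and 25 against 9 and 6. The chr13 copy (77938833) held 9 and 7 against 7 and 3. Each copy held more HpaII tags than MspI tags at this place in both fractions.

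At place 4, 43 bp further on, 3 of the 4 copies held fewer HpaII than MspI tags in both fractions. The chr1 copy (78797003) held 1 and 0 HpaII tags against 12 and 15 MspI tags, and the chr15 copy (31632934) 1 and 0 against 8 and 10. The chr14 copy (56763008) held 3 and 5 against 43.5 and 29.5 tags, some of them shared. In the chr13 copy (77938790) the values were 8 and 17 against 12 and 8, without this contrast. A rarely cut copy of the family on chromosome 8 held 0 and 0 HpaII tags against 9 and 10 MspI tags at place 3 (position 3793765), and a second copy in the same run held 1 and 3 against 7 and 2 (position 3793969). In a highly cut copy on chromosome 14 place 3 (position 115439940) held 3 and 12 against 1 and 3, and in one on chromosome 9 place 4 (position 58336442) held 11 and 29 against 10 and 4. The near-equal values of place 3 in the chr1, chr14 and chr15 copies were not tested for tags in common.

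CCGG positions around the members, outside any dense run and so not used by the rule, were also intermediate. Over 495 such positions within 2000 bp of a partly cut run, the pooled ratio was 1.26 (1.19 to 1.33) in the Emerald-high fraction and 1.51 (1.44 to 1.59) in the Emerald-negative one. Flanks of highly cut runs had 2.93 and 3.76, and those of rarely cut runs 0.348 and 0.271. Flanks of partly cut runs were lower than those of highly cut runs by a log2 difference of -1.22 (-1.30 to -1.14) and -1.32 (-1.39 to -1.25). The gap was also there at positions with 1 CCGG in the window (-1.15 and -1.64) and with 5 to 9 (-1.23 and -1.32). Beyond 1000 bp the ratio near partly cut runs was close to the library average: 1.08 and 0.906 from 1000 to 2000 bp, and 1.01 and 0.889 from 2000 to 5000 bp. Among flank positions with 4 or fewer CCGG in the window, partly cut flanks were below the library average, at a log2 ratio of -0.16 and -0.32. The level above 1 thus came with the denser flank positions.

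**Figure D3:**
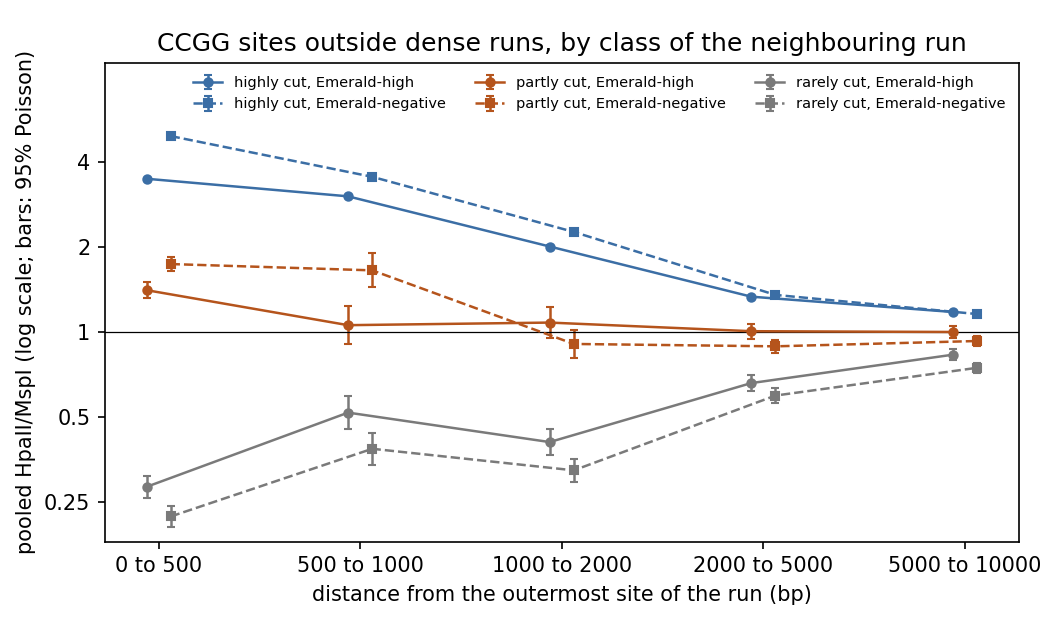
Pooled HpaII/MspI ratio (log scale, with 95% Poisson intervals) of CCGG positions outside dense runs, by distance from the outermost position of a highly, partly or rarely cut run, in Emerald-high (solid) and Emerald-negative (dashed) cells. Near partly cut runs the ratio falls from 1.41 and 1.74 within 500 bp to 1.01 and 0.889 at 2000 to 5000 bp, between the flanks of highly and rarely cut runs.

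Within the runs the outermost positions were cut less than the inner ones in Emerald-negative cells. In 96 members with at least 4 positions, the first and last position together had a log2 ratio lower than that of the inner positions by -0.49 (-0.65 to -0.33) in Emerald-negative cells. In Emerald-high cells the value was -0.17 (-0.35 to 0.0045), within counting error of 0. Without the run with most tags the values were -0.41 (-0.57 to -0.24) in Emerald-negative and -0.08 (-0.26 to 0.11) in Emerald-high cells. Highly cut runs had 0.05 (Emerald-high) and -0.21 (Emerald-negative), and rarely cut runs 0.61 and 0.69. Without members of recurrent spacing, 32 runs remained and gave -0.73 and -0.67, so in those runs the outermost positions were cut less in both fractions.

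Partly cut runs held fewer HpaII tags per MspI tag in Emerald-high than in Emerald-negative cells when scaled to library totals, but this direction depended on the scaling and on which libraries chose the members. Their direction relative to highly cut runs depended on the choice of members too. Summed over the 112 members, the HpaII/MspI ratio was 1.22 (1.16 to 1.27) in the Emerald-high fraction and 1.47 (1.41 to 1.53) in the Emerald-negative one, a log2 difference of -0.28 (-0.37 to -0.19), where a negative value means relatively less HpaII cutting in Emerald-high cells. HpaII tags alone differed by -0.11 (-0.17 to -0.04), and MspI tags, which do not depend on methylation, by 0.17 (0.11 to 0.23). The MspI difference was thus larger than that of HpaII. Without the run at chr7:89919687-89920539 the value was -0.17 (-0.27 to -0.07) and HpaII alone gave 0.01. The value depended on which libraries chose the members: with runs chosen by the Emerald-negative libraries alone it was 0.0027 (-0.11 to 0.11, 96 runs), and by the Emerald-high libraries alone -0.82 (-0.88 to -0.76, 228 runs). Choice by 1 fraction uses a ratio that is itself compared. The choice alone can thus move the difference, and these values cannot decide its direction. Scaled to the tags of all dense runs in place of the library totals, every difference moves up by 0.72, and that of the members became 0.45 (0.36 to 0.53). The direction in partly cut runs was therefore not fixed by these data.

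The difference from other dense runs does not change with that scaling, but it does with the choice of members. Highly cut runs had -0.73 and rarely cut runs 0.70, so partly cut runs stood 0.46 (0.37 to 0.55) above the former and -0.98 (-1.13 to -0.83) relative to the latter. With all classes chosen by the Emerald-negative libraries alone these contrasts were 0.74 (0.63 to 0.85) and -0.80 (-0.96 to -0.64). With all classes chosen by the Emerald-high libraries alone they were -0.093 (-0.16 to -0.030) and -1.27 (-1.41 to -1.12), so the sign against highly cut runs turned and that against rarely cut runs did not. Both choices use 1 of the ratios compared, so the turn of sign cannot decide the direction. By ratio class the values passed from 0.91 under 0.25 and 0.40 from 0.25 to under 0.5 to 0.01 from 0.5 to under 1, -0.31 from 1 to under 2, -0.56 from 2 to under 2.8 and -0.75 from 4 to under 8. With these classes by the ratio of both fractions, the difference was thus lower in each higher class. Finer classes of the members did not follow this order. They had 0.04 (-0.25 to 0.33) from 0.5 to under 0.7 and -0.02 (-0.28 to 0.23) from 0.7 to under 1. From 1 to under 1.4 the value was 0.09 (-0.10 to 0.28). Only from 1.4 to under 2 was it beyond counting error, at -0.44 (-0.56 to -0.32), or -0.36 without the run with most tags. MspI alone was 0.10 under 0.25, 0.26 from 0.5 to under 1, 0.13 from 1 to under 2 and 0.28 from 4 to under 8. MspI is the divisor, so a higher MspI value lowers the difference. From 2.8 to under 4 and from 4 to under 8, HpaII alone was -0.48 and -0.47 and MspI alone 0.20 and 0.28. Members of recurrent spacing had -0.09 (-0.24 to 0.06), within counting error of 0, and the others -0.37 (-0.48 to -0.26), or -0.24 without the run with most tags.

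**Figure D4:**
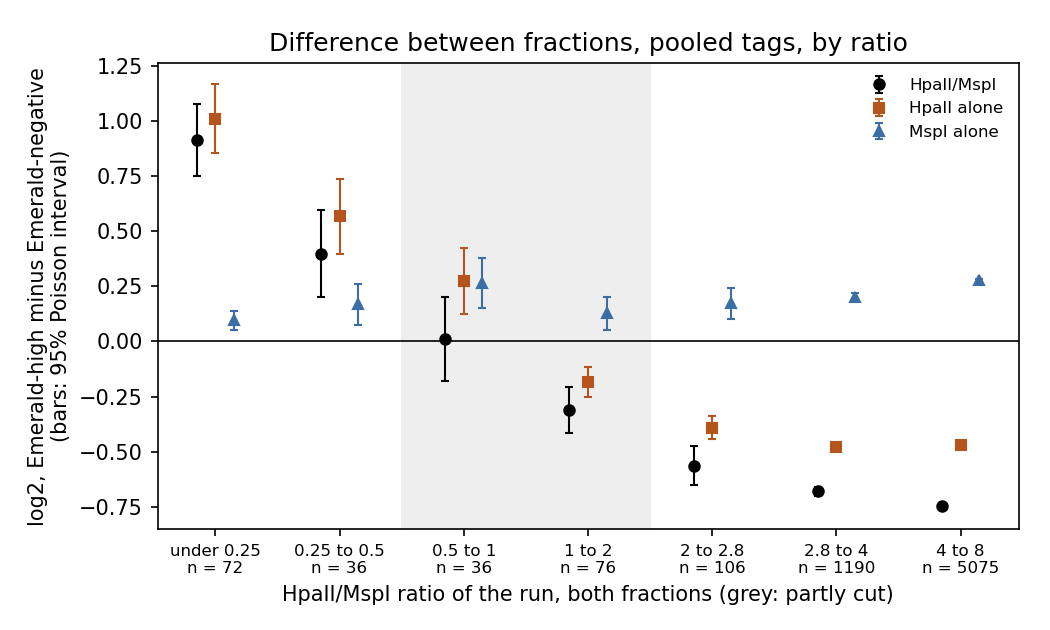
Log2 difference between Emerald-high and Emerald-negative cells in pooled HpaII/MspI (black), HpaII alone (orange) and MspI alone (blue), scaled to library totals, by HpaII/MspI ratio of the run, with 95% Poisson intervals. HpaII/MspI passes from 0.91 in the lowest class through 0.01 and -0.31 in partly cut runs to -0.75 at 4 to under 8, while scaling to dense runs would move all HpaII/MspI values up by 0.72.

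Over single members the log2 difference, with 1 tag added to each count, had a median of -0.12 (quartiles -0.56 and 0.53, range -5.29 to 2.14), against a median of -0.71 over all runs tested. It was above 0 in 48 members (42.9%) and below 0 in 64. Above 0 were 6.63% of all runs tested. The interval was above 0 in 6 members and below 0 in 8. The SD over members was 0.98 and the median counting error 0.68, so much of the spread was of the size of counting error. Of 14 autosomes with at least 5 members, 10 had a pooled value below 0, from -0.59 on chromosome 7 to 0.25 on chromosome 5. Among the 14, only chromosomes 7, 11 and 13 had an interval that left out 0. On chromosome 7 the run chr7:89919687-89920539 held most HpaII tags of the members: 768.5 of 916.5 in Emerald-high and 1713 of 2102 in Emerald-negative cells.

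**Figure D5:**
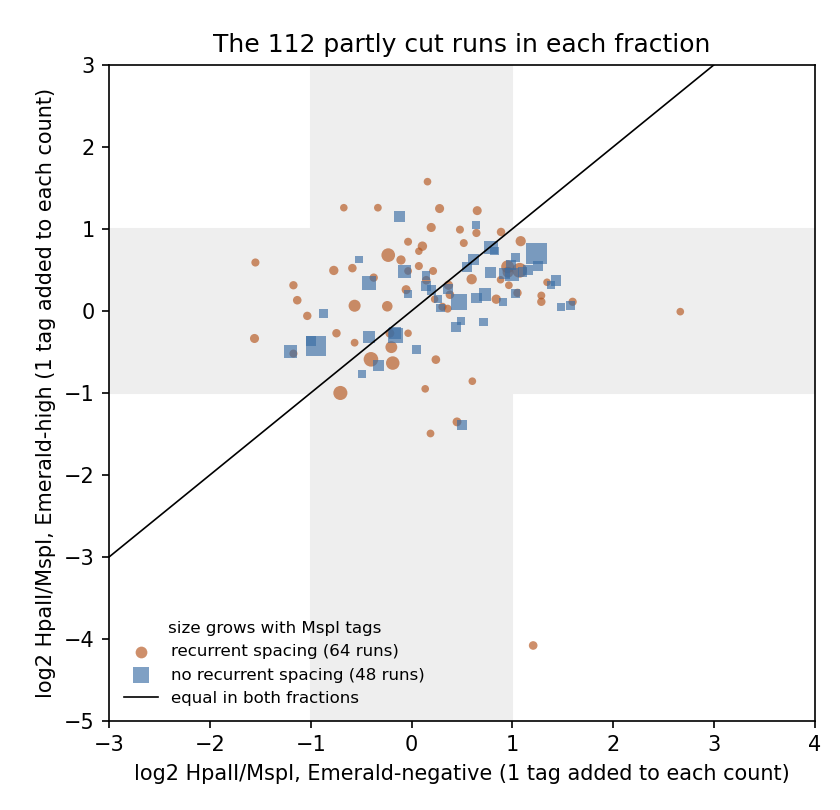
Log2 HpaII/MspI of each of the 112 partly cut runs in Emerald-negative (x) and Emerald-high (y) cells, with 1 tag added to each count, circles for recurrent spacing, squares for the others, and size growing with MspI tags. Points scatter on both sides of the line of equal values inside the grey bands from 0.5 to 2, and the lowest point is the run without an Emerald-high HpaII tag.

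For every run the 4 tag counts were set against the library totals by Fisher's exact test (two-sided), and p-values were adjusted over all 6602 runs (Benjamini-Hochberg). This compares the libraries, not the conditions. At an adjusted p under 0.05 and at least a 2-fold change, 5 partly cut runs were lower in Emerald-high cells and 1 was higher. Over all runs tested, 20.7% were called lower and 0.151% higher. The 5 lower members are 4.46% of the 112. By adjusted p alone 6 members were lower and 2 higher (37.3% and 0.182% of all runs tested), and by unadjusted p under 0.05 there were 8 and 5 (48.8% and 0.318%). Members held fewer tags than most runs, and on simulated data the test found 10 of 20 partly cut runs changed 4-fold. In that simulation 6382 of 6602 runs were unchanged and counts varied by counting error only. In the data 37.4% of runs passed the adjusted p, so the cut was less strict there and the simulated share does not carry over. Scaled to dense runs, 1 member was called lower and 4 higher.

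Among the 6 called runs the smallest adjusted p was that of chr11:17365659-17366682, with 0 and 25 HpaII tags against 27 and 10 MspI tags. HpaII tags were at least 4.95-fold lower in Emerald-high cells, taking 3 tags as the limit that a count of 0 allows (adjusted p 5.99e-05, Fisher's exact test). In this run 21 of 23 gaps were multiples of 15 bp, and 8 of its 14 used positions held the same 3 and 1 MspI tags. Whether those positions share tags was not tested. The run called higher, chr17:84668226-84668954, held 55 and 42 HpaII tags against 40.7 and 44.7 MspI tags (log2 difference 1.28, SE 0.43, adjusted p 0.0141, Fisher's exact test). All of its tags lay at positions with shared tags, and it was absent from the runs left when such positions were dropped.

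Of the other runs called lower, the Krtdap run held 18 and 51 HpaII tags and 29 and 16 MspI tags. From the outer upstream to the downstream position the HpaII values were 6 and 12, 4 and 16, and 8 and 23, and the MspI values 14 and 4, 3 and 8, and 12 and 4. HpaII was lower in Emerald-high cells at all 3 positions and MspI higher at the outer and the downstream one. The ratio was 1.03 in the Emerald-high fraction and 3.11 in the Emerald-negative one (log2 difference -1.51, SE 0.58, adjusted p 0.0347, Fisher's exact test). At chr17:22606017-22606456, a member of the 5-11-10 family, 11 and 25 HpaII tags stood against 19 and 3 MspI tags (-2.68, adjusted p 0.0118). Here the MspI libraries differed by 2.31 (log2) and HpaII by -0.36. At chr2:36451120-36451584 the values were 8 and 28 HpaII against 38 and 19 MspI tags (-1.89, adjusted p 0.0196), and at chr7:88489857-88490001, where 54.2% of tags were at shared positions, 30 and 96 against 38.8 and 34.1 (-1.07, adjusted p 0.043). With counts divided by the overdispersion between the MspI libraries, the adjusted p was 0.0621 for the Krtdap run and 0.102 for chr7:88489857-88490001. In these 4 runs the MspI library held more scaled tags in Emerald-high cells, by 0.17 to 2.31 (log2), and what part this had in the calls was not tested.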

How the data were processed

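HELP tags were analysed in 4 libraries, 1 per fraction and enzyme. The values the authors deposited are estimated counts of tags at every CCGG position, split in 2 and summed, with no scaling to depth. The sum was used. Not given in the sources used here are the meaning of the split, the aligner and how tags with more than 1 match were treated. Coordinates are those of mm9, the build in the submitters' processing notes.

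Tags were summed per run and scaled to library totals. Log2 ratios of pooled tags have Poisson intervals, and shares exact Clopper-Pearson intervals (95%). Fisher's exact test used counts rounded to whole tags, the null odds ratio of the library totals and a pseudocount of 1 tag in the fold. In a simulation of Emerald-high against Emerald-negative libraries over 6602 runs it called 28 of 100 highly or rarely cut runs changed 2-fold, 87 of 100 changed 4-fold and 2 of 6382 unchanged ones. It was checked against R 4.3.3 in 100 tables. Of 4198 promoter patterns with at least 4 CCGG, 4055 were found once, 4054 of them on the right chromosome. Starts with 3 CCGG were placed by their order between these. Tried on the first 3 CCGG of 4216 known starts with at least 4, this rule placed 4182, all of them rightly. The nearest placed start need not be the nearest gene.

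Named runs were the 6 with most MspI tags and at most 10% of tags at shared positions, those called, the 2 on each side of each limit with at least 100 MspI tags, the 4 with most positions, and the 3 most uneven with at least 8 usable positions. Recurrent spacing, its families and the left-out run were chosen after values were seen. Members, limits and tests were chosen with earlier results of these data known. Scripts ran in Python 3.11.15 with matplotlib 3.10.9, scipy 1.17.1, pandas 2.3.3 and numpy 2.4.6.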

Additional observations from a re-analysis of the deposited data

Results flagged for a closer look

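Partly cut runs differed from the other classes in the contrast between Emerald-high and Emerald-negative cells, in part with a sign that depends on how the classes were chosen. Their log2 HpaII/MspI difference minus that of highly cut runs was 0.46 (0.37 to 0.55), and minus that of rarely cut runs it was -0.98 (-1.13 to -0.83). Without the run chr7:89919687-89920539 the first was 0.56 (0.46 to 0.66). With all classes chosen by the Emerald-high libraries alone the first was -0.093 (-0.16 to -0.030), the other way. That choice uses a ratio that is itself compared, so it cannot decide the sign. These intervals cover counting error in 1 library per fraction and enzyme, with no replicate check.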

How the results depend on the processing

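The number of partly cut runs went from 112 to 40 with an MspI minimum of 50 tags and to 67 when each fraction had to lie within the limits. With whole-tag positions only it was 96, with joining gaps of 250 bp 119 and with scaling to autosomal sums that leave out the 0.1% of positions with most MspI tags 126. The difference between fractions (-0.28) became 0.45 when scaled to dense runs and 0.0027 (-0.11 to 0.11), within counting error of 0, with members chosen by the Emerald-negative libraries alone. It was -0.18 without the 0.1% of positions with most MspI tags, -0.11 for HpaII alone, -0.12 as a median over runs and -0.82 with members chosen by the Emerald-high libraries alone. Choosing by 1 fraction uses a ratio that is itself compared, and also changes which runs are compared.

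Alternatives in this paragraph, except those on flank width, flank density and whole-tag positions, were chosen after seeing the data. With all classes chosen by the Emerald-negative libraries alone, partly minus highly cut runs (0.46) was 0.74 and partly minus rarely cut runs (-0.98) was -0.80. By the Emerald-high libraries alone they were -0.093 and -1.27. The difference was -0.17 without the run with most tags and -0.37 without runs of recurrent spacing. Flank log2 ratios of 0.33 (Emerald-high) and 0.60 (Emerald-negative) were -0.16 and -0.32 at positions with 4 or fewer CCGG, and 0.47 and 0.75 without runs of recurrent spacing. Within 1000 bp the Emerald-negative one was 0.78. Outer minus inner positions (-0.17 and -0.49) gave -0.73 and -0.67 without recurrent spacing. Upper minus lower sites (0.72) gave 0.47 with whole-tag positions and 0.47 without recurrent spacing. The share of recurrent spacing (57.1%) was 67.0% at 3 or more places, where rarely cut runs had 63.9% and highly cut runs 29.2%, 43.8% at 100 or more and 32.5% with 50 MspI tags. The share with a gene start (0.901%) was 0% with 50 MspI tags and 0% with each fraction within the limits. The causes were not tested.

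The 6 calls became 8 by adjusted p alone, 5 with the null odds from dense runs (4 higher, 1 lower), and 4 each with the overdispersion of 1.25, with whole-tag positions and without recurrent spacing. With the null odds from dense runs the Krtdap run, chr2:36451120-36451584, chr7:88489857-88490001 and chr17:22606017-22606456 were no longer called lower. No paired analysis was possible because each fraction and enzyme had 1 library, so fewer than 2 numbers are shared. At a median of 41.8 MspI tags per run, a 4-fold change was found in 10 of 20 simulated members. Smaller changes were not simulated for them, and the adjusted p cut of the simulation was stricter than that of the data.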

Other observations

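The X chromosome, outside the rule, had 417 dense runs, of which 110 held at least 20 MspI tags. Of these, 103 were highly cut, 5 rarely cut and 2 partly cut (1.82%). The 2 partly cut runs together held 22.8 and 33.2 HpaII tags in Emerald-high and Emerald-negative cells, and 30.2 and 32.5 MspI tags. None of the 6 dense runs of the Y chromosome reached the MspI minimum.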
